A study of Mus musculus with 3 samples.

Results

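The cells described here were sorted cells of the enteric nervous system, from a series on myenteric neurons, in which at least 3 of 8 genes were detected, Neurod4, Igfbpl1, Klhl32, Chodl, Palmd, Nptx2, Cox8b and Ndufa4l2, and in which fewer than 3 of a second set of 8 genes were detected, Krtdap, Ffar2, Ffar3, Plcxd3, Dmkn, Pkp1, Tmem132c and Stac2. The deposited table held 2060 cells, the number of neurons that the paper kept after removing non-neuronal cells. Shares and levels below are thus of these cells and not of all sorted cells. Of the 2060 cells, 247 met this rule. The members were therefore selected on their own measured values, and the genes of the rule are given as a description with no test. They came from 3 Ednrb-/- mice at postnatal day 14, all carrying Wnt1-Cre and a Cre-dependent GCaMP5-tdTomato reporter, with no wild-type littermate among the samples. Their labels give C57BL/6, while the study's methods give B6;129 for the Ednrb parent line and other B6-based names for the Wnt1-Cre and reporter lines. The Wnt1 promoter drives Cre in the neural crest lineage, and mice without the endothelin receptor Ednrb lack ganglia in the distal colon, as in Hirschsprung disease, while the small intestine used here keeps its ganglia. The longitudinal muscle and myenteric plexus was dissected from the whole small intestine, tdTomato-positive cells were sorted, and 1 droplet library (10X) was made from each mouse. All 3 mice formed a single group, so the comparison was between the chosen cells and all other cells of the same library. Ednrb transcripts were read in the chosen cells at 2.37 (mouse 2) and 1.76 (mouse 3) UMIs per 10000, and in the other cells at 2.57 and 2.03, and since UMIs were summed over the whole gene this does not test the genotype.

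Enteric neurons arise from neural crest progenitors, which pass through a short neurogenic phase driven by proneural basic helix-loop-helix factors before they take on a transmitter identity. Postmitotic enteric neurons are commonly described along branches, of which the transcription factors Bnc2 and Etv1 are leading marks, the Etv1 side giving rise to many Nos1 neurons that release nitric oxide. Neurod4 belongs to the proneural family, and Igfbpl1 encodes a secreted protein related to the insulin-like growth factor binding proteins that is known from newborn neurons. Chodl encodes the membrane lectin chondrolectin, Nptx2 a secreted pentraxin of excitatory synapses, Palmd the protein palmdelphin and Klhl32 a kelch-repeat protein. Cox8b and Ndufa4l2 encode tissue isoforms of respiratory chain subunits.

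The 8 selecting genes did not lie in a common gene cluster. In RefSeq's annotation of GRCm38.p6, Neurod4 lies at chr10:130268152-130280254, Igfbpl1 at chr4:45809507-45826827, Chodl at chr16:78930841-78951736 and Phox2a, a marker that the rule did not use, at chr7:101818313-101822726. Since proneural factors bind E-boxes, the 250 bases before each annotated start of the selecting genes and of Phox2a and Ddc were searched for CAGNTG on either strand, which reads CANCTG on the other. Starts of 6 of these 10 genes were in the table used, giving 8 windows, of which 3 held a match, against 44.8% of all 32841 windows of that length. The windows of Neurod4, Chodl and Klhl32 are shown because they include the gene that names the cells and cases with and without a match, which is in capitals. They lie at chr10:130280255-130280504 (minus strand), chr16:78930698-78930947 (plus strand) and chr4:24851125-24851374 (minus strand), and each is written 5′ to 3′ with its start site just after the last base.
Neurod4: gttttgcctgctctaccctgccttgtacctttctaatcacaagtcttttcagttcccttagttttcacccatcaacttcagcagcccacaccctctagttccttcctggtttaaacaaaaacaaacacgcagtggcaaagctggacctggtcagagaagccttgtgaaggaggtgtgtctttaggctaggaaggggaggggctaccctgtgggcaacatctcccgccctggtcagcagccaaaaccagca
Chodl: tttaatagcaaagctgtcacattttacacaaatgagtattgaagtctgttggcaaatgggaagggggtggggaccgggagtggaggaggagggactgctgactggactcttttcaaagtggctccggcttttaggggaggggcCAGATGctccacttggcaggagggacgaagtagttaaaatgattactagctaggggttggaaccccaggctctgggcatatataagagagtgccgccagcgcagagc
Klhl32: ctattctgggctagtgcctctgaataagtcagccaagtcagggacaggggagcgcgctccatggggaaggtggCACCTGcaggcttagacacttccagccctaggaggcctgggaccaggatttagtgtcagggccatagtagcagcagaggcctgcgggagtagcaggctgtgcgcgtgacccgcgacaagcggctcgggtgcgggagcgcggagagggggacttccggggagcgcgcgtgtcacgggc
The match lay 107 bases before the start of Chodl and 177 bases before that of Klhl32. The Neurod4 window did not hold these letters, and neither did the windows of Phox2a and Ddc.

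The chosen cells came almost wholly from mice 2 and 3. They made up 151 of 1050 cells (14.4%, 95% exact binomial interval 12.3 to 16.7) in mouse 2 and 94 of 656 cells (14.3%, 11.7 to 17.2) in mouse 3, but 2 of 354 cells (0.565%, 0.0685 to 2.03) in mouse 1. The mean over the 3 mice was 9.76% ± 7.96 (SD, n = 3). The library of mouse 1 stood apart, with a median of 3734.5 UMIs per cell against 9599.5 and 9578.5 in mice 2 and 3, and the part of this lower depth in its lower share was not tested. The smooth muscle genes Acta2 and Myh11 gave 15 and 12 UMIs in 1 of its 2 chosen cells, and Tubb3 gave 0 UMIs in both. All levels and ratios below therefore rest on mice 2 and 3.

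Chosen cells were deeper than the others of their mouse, with medians of 10617 against 9213 UMIs in mouse 2 and 12478.5 against 8788.5 in mouse 3, and a rule that counts detected genes favours deep cells. With cells thinned to 3000 UMIs and the rule applied again, the mean share over the 3 mice was 4.20% ± 3.33 (SD, n = 3). Cells with fewer than 3000 UMIs were left out of all thinned values, which removed 78 other cells in mouse 1, 2 chosen and 53 other cells in mouse 2 and 45 other cells in mouse 3. Levels are given as UMIs per 10000 UMIs of the cells, with exact 95% Poisson intervals that, like those on shares, cover counting error only. UMIs of genes not listed in the table made up 19.2% and 18.7% of the chosen cells' totals in mice 2 and 3, and 13.7% and 13.6% of the other cells' totals. Scrublet marked 10 of all cells as doublets, 0.485%, too few to count as a working call, and 0 of them were chosen. A barcode was shared between libraries by 4 cells, 1 of them chosen.

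**Figure D1:**
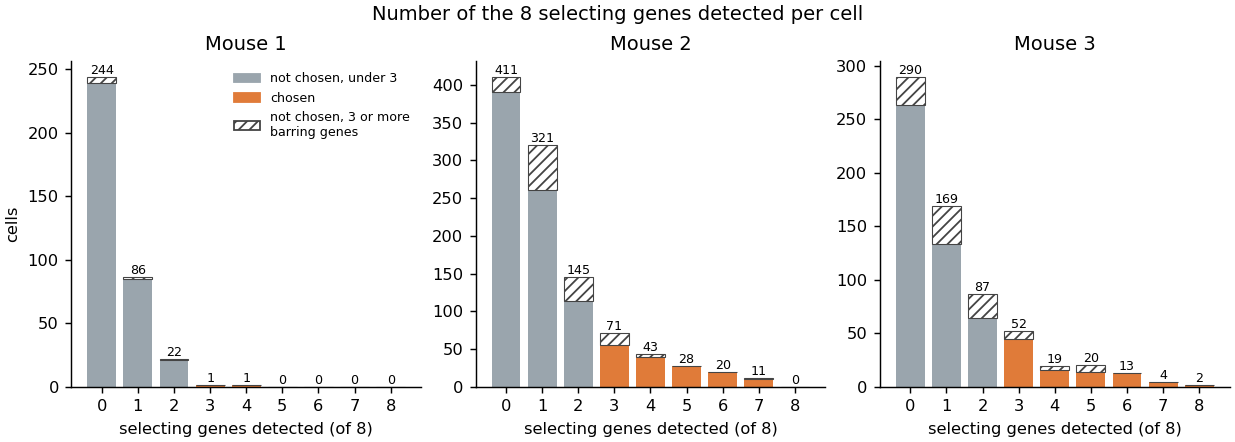
Number of cells (y axis, own scale for each mouse) by how many of the 8 selecting genes were detected (x axis). Orange bars are the chosen cells, grey bars cells below the limit and hatched bars cells with 3 or more of the second gene set, and the 3-gene bars are the tallest of the orange bars in mice 2 and 3.

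The rule drew a line through a falling slope rather than around a separate peak. Of the 247 chosen cells, 101 (40.9%) had exactly 3 selecting genes, 56 had 4, 41 had 5, 49 had 6 or more and 2 had all 8. Just below the limit stood 254 cells with 2 selecting genes, of which 199 had fewer than 3 genes of the second set. A further 38 cells met the limit but also carried 3 or more genes of the second set, 22 in mouse 2 and 16 in mouse 3. The chosen cells showed 107 different combinations of the 8 genes, and the most frequent, Igfbpl1, Klhl32, Chodl, Cox8b and Ndufa4l2, was found in 9 cells. Neurod4 or Igfbpl1, the genes that name these cells, was detected in 177 of 247 (71.7%), so the rule admitted 70 cells in which neither was read. Both were detected together in 57 chosen cells and in 6 of all other cells.

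For the gene detected in the fewest other cells, Neurod4, 33.1% of chosen and 1.11% of other cells of mouse 2 had a UMI, and 36.2% and 2.49% in mouse 3. Igfbpl1 was detected in 64.9% and 53.2% of the chosen cells (1.59 and 1.26 per 10000) and in 4.89% and 4.98% of the others. Chodl was detected in 74.8% and 66.0% of the chosen cells and in 12.7% and 8.90% of the others. These shares were set by the rule and by depth together. After thinning to 3000 UMIs, Neurod4 was detected in 14.8% and 8.51% of the chosen cells, Igfbpl1 in 40.9% and 30.9% and Chodl in 33.6% and 35.1%. As a measure of free RNA, the cluster with the lowest share among its other cells was taken for each gene. This clustering kept the genes of the rule. Neurod4 was detected there in 0 of 92 cells (median 13541.5 UMIs) and Igfbpl1 in 0.278% of 360 (10928.5). Chodl was detected in 3.11% of 161 cells (4595) and Klhl32, with the highest such share of the selecting genes, in 5.43% of 221 (7300).

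Detection of the selecting genes on either side of the limit, which the rule itself raises on the inner side, is given as a description. Both sides were limited to cells with fewer than 3 genes of the second set. Cells of mouse 2 with exactly 3 selecting genes had Neurod4 in 23.6%, Igfbpl1 in 45.5% and Nptx2 in 23.6%, against 4.39%, 14.04% and 7.89% of the cells with exactly 2. In mouse 3 the same shares were 17.8%, 31.1% and 17.8% against 9.38%, 21.9% and 6.25%. Palmd was detected in 7.27% against 10.53% in mouse 2 and in 15.6% on both sides in mouse 3, and Ndufa4l2 in 49.1% on both sides in mouse 2 and in 57.8% against 45.3% in mouse 3.

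Phox2a and Ddc, the markers of the cells that the rule did not use, were both higher in the chosen cells. They were named as markers with earlier results of these same data known, so their values are given as a description. Phox2a encodes a homeodomain factor of autonomic neurons. Its level was 8.89 (8.45 to 9.35) in the chosen and 2.003 (1.91 to 2.10) in the other cells of mouse 2, and 6.72 (6.27 to 7.20) and 2.03 (1.91 to 2.16) in mouse 3. The intervals were apart in both mice, and the mean log2 ratio was 1.94 ± 0.30 (SD, n = 2). Ddc encodes aromatic L-amino acid decarboxylase, which makes dopamine and serotonin from their precursors, and was read at 0.471 against 0.0728 and at 0.266 against 0.0883, a mean log2 ratio of 2.14 ± 0.78. In cells thinned to 3000 UMIs, Phox2a was detected in 80.5% and 66.0% of the chosen cells and in 33.1% and 32.3% of the others. Ddc was then detected in 10.1% against 1.65% in mouse 2, and in 4.26% against 2.51% in mouse 3, where the shares lay closer.

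Across all genes outside the rule, 13508 had at least 20 UMIs and were detected in at least 1% of cells. A gene was called higher or lower where its ratio, chosen over other cells, was at least 1.5-fold in the same direction in both mice. Of these genes, 353 (2.61%) were higher and 1610 (11.9%) lower, so that a gene list needs to be read against a background in which lower calls were more frequent. Intervals of the chosen and other cells were apart in both mice for 158 of the higher and 655 of the lower genes. Among genes outside the rule detected in at least 20% of the chosen cells of both mice, the 15 highest, ordered by the ratio in the mouse where it was smaller, were Mfap4, Btbd17, Syce2, Mfng, Phox2a, Kcne1l, Nt5dc2, Ddc, St18, Pdzrn3, Sox11, Kcnh7, Nxph4, Hmgn2 and Sapcd1. Mfap4, which encodes a microfibril-associated extracellular matrix protein, led this order at 1.01 (0.861 to 1.17) against 0.189 (0.162 to 0.221) in mouse 2 and 0.890 (0.730 to 1.08) against 0.192 (0.156 to 0.233) in mouse 3. Hmgn2, a nucleosome-binding protein, was read in nearly every chosen cell, at 8.21 against 2.88 and 6.85 against 2.71. Syce2, known as a synaptonemal complex component, was read at 0.906 against 0.210 and 0.757 against 0.211. The potassium channel gene Kcnh7 stood at 0.665 against 0.197 and 0.749 against 0.292, and the neurexophilin gene Nxph4 at 1.92 against 0.552 and 1.85 against 0.723.

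Several genes of the neurogenic program were higher. The list held 25 neurogenic basic helix-loop-helix and partner factors, Id genes among them, and 17 could be compared. Of these 6 (35.3%, against 2.61% of all genes) were higher, Atoh8, Hes6, Id1, Myt1 and St18 among them, and 2 (11.8%, against 11.9%) lower, Id4 and Neurod6. The difference between these shares was not tested. The summed level of the list was 33.2 against 23.9 per 10000 in mouse 2 and 35.4 against 23.7 in mouse 3, a mean log2 ratio of 0.53 ± 0.07 (SD, n = 2), and its median gene stood at 0.55 against −0.12 for all genes. The level of Hes6, an inhibitor of Hes1 activity, was 1.97 against 0.957 and 1.51 against 0.689. St18 and Myt1 encode related zinc finger factors of neuronal differentiation, and St18 stood at 1.95 against 0.673 and 1.87 against 0.390. Neurod6, a later neurogenic factor, was lower, 2.10-fold in mouse 2 and at least 3.92-fold in mouse 3, where 0 UMIs were read in the chosen cells, set to 3 for the bound, and 51 in the others. Thinned to 3000 UMIs, Neurod6 was detected in 2.68% of the chosen and 2.48% of the other cells of mouse 2, so the lower share was not seen there, and in 0% against 2.32% in mouse 3.

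The Notch list gave 2 higher genes of 15 compared (13.3%, against 2.61% of all genes), Mfng and Dll1, and 2 lower genes, Jag2 and Nrarp, a share near the 11.9% of all genes. Mfng encodes a fringe glycosyltransferase that modifies Notch receptors and was read at 1.39 (1.22 to 1.58) against 0.366 (0.327 to 0.409) in mouse 2 and 0.907 (0.745 to 1.09) against 0.271 (0.228 to 0.319) in mouse 3. The ligand gene Dll1 stood at 0.194 against 0.109 and 0.150 against 0.0806. The receptor gene Notch1 and the target gene Hes1 met the call in neither direction, at 0.465 against 0.389 and 0.558 against 0.461 for Notch1 and at 0.324 against 0.567 and 0.541 against 0.745 for Hes1. None of 25 cell cycle genes was higher and 3 were lower, Ccnb1, Ccnb2 and Cenpf, a share of 12.0% that is near the 11.9% of all genes. The summed level of this list was 7.56 against 6.02 in mouse 2 and 6.66 against 6.44 in mouse 3. The proliferation marker Mki67 was read at 0.135 against 0.149 and 0.0999 against 0.225.

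**Figure D2:**
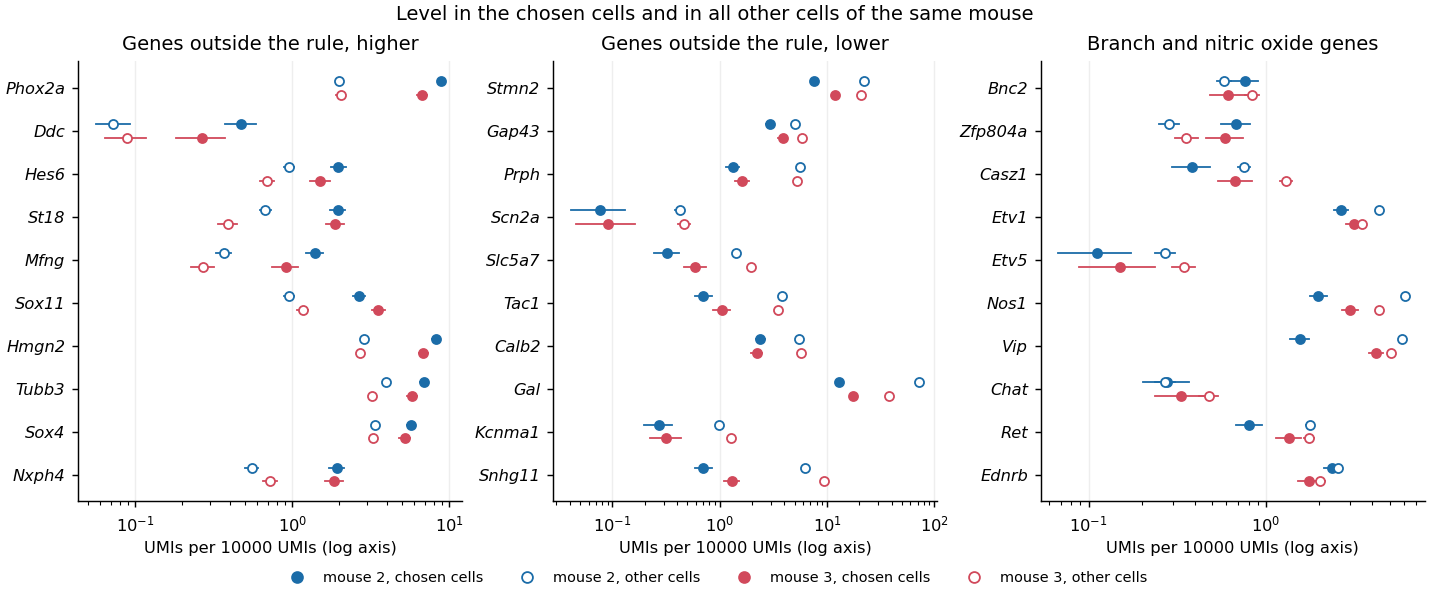
Level (UMIs per 10000 UMIs, log axis) of 30 genes outside the rule in the chosen cells (filled points) and all other cells (open points) of mouse 2 (blue) and mouse 3 (red), with exact 95% Poisson intervals. In the left panel all filled points lie to the right of the open ones of the same mouse and in the middle panel to the left, while Bnc2 in the right panel changes sides between the mice.

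Of 30 genes commonly used as marks of immature neurons, 3 (10.0%, against 2.61% of all genes) were higher and 4 (13.3%) lower, the latter near the 11.9% of all genes, and the list as a whole had no shared direction, with log2 ratios of −0.09 in mouse 2 and 0.05 in mouse 3. The higher genes were Sox11, Sox4 and Tubb3. Sox11, a SoxC factor of newborn neurons, was read at 2.67 (2.43 to 2.92) against 0.954 (0.890 to 1.02) and at 3.54 (3.21 to 3.89) against 1.17 (1.08 to 1.26), and the neuronal tubulin gene Tubb3 at 6.89 against 3.96 and 5.83 against 3.22. The lower genes were Stmn2, Gap43, Dclk1 and Islr2. Stmn2, a microtubule regulator of the growth cone, stood at 7.62 (7.21 to 8.05) against 22.2 (21.9 to 22.6) and at 11.9 (11.3 to 12.49) against 20.8 (20.5 to 21.2). Dcx, the usual mark of migrating young neurons, was 0.312 against 0.522 and 0.516 against 0.647 and met the call in neither direction.

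Genes of mature neurons were lower as a group. Of 32 compared, 14 (43.8%, against 11.9% of all genes) were lower, Nefh, Nefl, Nefm, Prph, Rbfox1, Scn2a, Scn3a, Sncg, Syn1 and Syn2 among them, and 0 were higher. Their summed level was 33.8 against 59.7 in mouse 2 and 42.3 against 62.4 in mouse 3, a mean log2 ratio of −0.69 ± 0.18 (SD, n = 2). Prph, which encodes the intermediate filament peripherin, was read at 1.32 (1.15 to 1.503) against 5.64 (5.48 to 5.80) and at 1.62 (1.40 to 1.87) against 5.26 (5.06 to 5.46). The sodium channel genes Scn2a and Scn3a stood at 0.0765 against 0.423 and 0.418 against 1.19 in mouse 2, and at 0.0915 against 0.464 and 0.583 against 1.75 in mouse 3. Among 23 potassium channel genes 12 (52.2%, against the same 11.9%) were lower, Kcnma1 among them at 0.271 against 0.985 and 0.316 against 1.28. In this list 1 (4.35%, against 2.61% of all genes) was higher, Kcnh7. In the same order for lower genes, the first among those detected in at least 20% of other cells was Snhg11, a long noncoding RNA of neurons, at 0.706 (0.586 to 0.844) against 6.27 (6.11 to 6.44) and 1.29 (1.09 to 1.51) against 9.37 (9.11 to 9.64). After it came Lrfn5, Pi15, Scn2a, Ppfibp2, Faim2, Gng4, Gabrg3, Vgf, Stum, Kcnma1, AW551984, Cacna1e, Gucy1a1 and Ryr2.

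The 6 transmitter lists were lower in their summed level in both mice, and the number of genes called lower differed between them, against 11.9% of all genes. Of 11 genes of excitatory motor neurons 7 (63.6%) were lower and 0 higher, and the list summed to 4.53 against 13.5 in mouse 2 and 5.03 against 13.6 in mouse 3. The rule bars cells with 3 or more genes of the second set, which are thus counted among the other cells. In those with fewer than 3 selecting genes this list summed to 28.8 and 24.8. In the other Bnc2-positive cells with fewer than 3 genes of either set, described below, it summed to 15.7 and 14.3. The part of the rule in the lower level was not tested. Tac1, the precursor of substance P, stood at 0.706 against 3.84 and 1.04 against 3.51, and Calb2, which encodes calretinin, at 2.40 against 5.43 and 2.21 against 5.75. Of 19 sensory and interneuron genes 14 (73.7%) were lower, Calcb, Nmu, Nog and Grp among them. Only 1 (5.26%, against 2.61% of all genes) was higher, Bmp7, at 0.235 against 0.0993 and 0.216 against 0.109. Of 12 genes for nitric oxide and inhibitory peptides 6 (50%) were lower and 0 higher. For this list the mice were unlike in size, with log2 ratios of −2.32 in mouse 2 and −0.97 in mouse 3. Gal, the galanin precursor, stood at 72.5 in the other cells of mouse 2 and at 38.1 in those of mouse 3, against 12.9 and 17.6 in the chosen cells. Of 14 GABA and glutamate genes 7 (50%) were lower and 0 higher, and of 11 genes of monoamine synthesis and transport 4 (36.4%) were lower and 0 higher. Among 11 acetylcholine genes 3 (27.3%) were lower and 1 (9.09%, against 2.61% of all genes) was higher. The choline transporter gene Slc5a7 was lower, at 0.324 against 1.43 and 0.591 against 1.95, and the nicotinic receptor gene Chrna7 higher, at 0.653 against 0.273 and 0.424 against 0.271. Chat, which makes acetylcholine, was 0.277 against 0.270 in mouse 2 and 0.333 against 0.476 in mouse 3 and met the call in neither direction.

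Respiratory chain genes outside the rule, the group to which Cox8b and Ndufa4l2 belong, were called in neither direction. Of 71 nuclear respiratory chain genes 0 were higher and 0 lower, with log2 ratios of the summed level of −0.15 in mouse 2 and 0.00 in mouse 3. Of 21 compared genes of respiratory tissue isoforms and hypoxia responses outside the rule 0 were higher and 5 (23.8%, against 11.9% of all genes) lower, Ankrd37, Egln3, Hk2, Pfkfb3 and Slc2a3. The common isoform genes Cox8a and Ndufa4 stood at 12.7 against 17.3 and 10.4 against 15.1 in mouse 2, and at 14.6 against 16.4 and 12.7 against 15.8 in mouse 3.

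**Figure D3:**
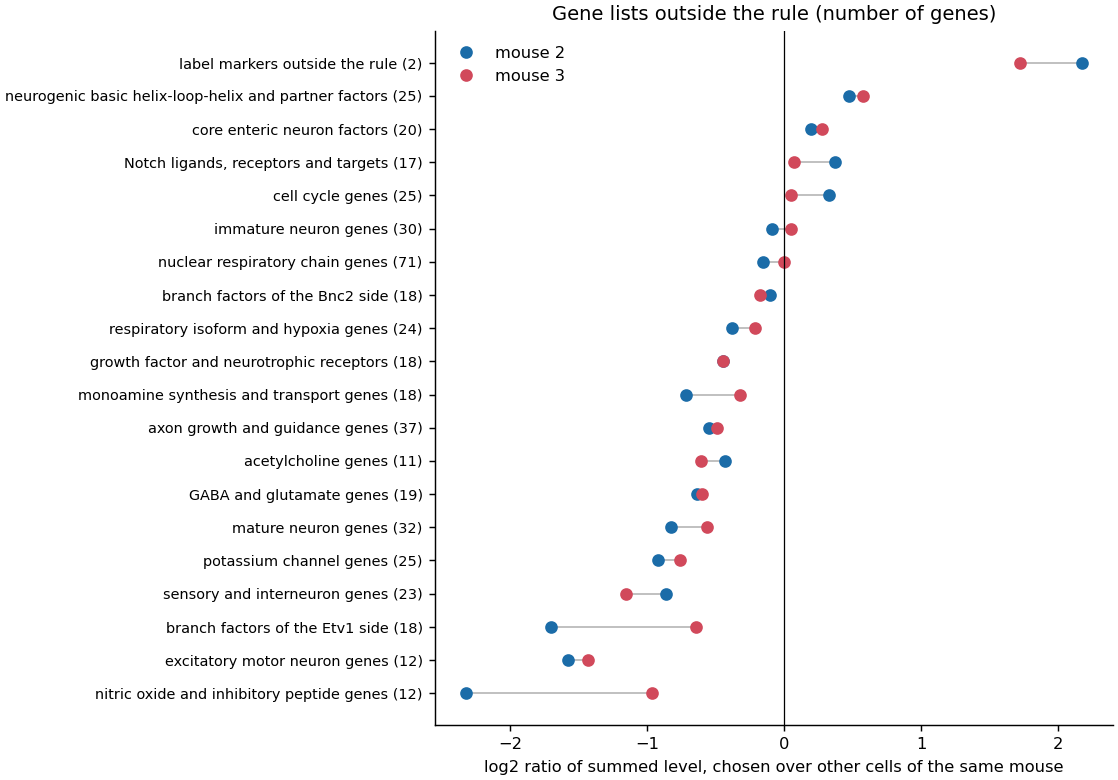
Log2 ratio of the summed level of each gene list, chosen over other cells of the same mouse (x axis), for mouse 2 (blue) and mouse 3 (red), with the number of listed genes in parentheses. The neurogenic factors lie at 0.48 and 0.58, the mature neuron genes at −0.82 and −0.56, and the nitric oxide list spans −2.32 to −0.97.

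Markers of other cell types were read in both the chosen and the other cells, after the study's removal of non-neuronal cells. The 16 glial markers summed to 55.1 against 60.3 per 10000 in mouse 2 and 35.6 against 49.8 in mouse 3, and per cell the chosen cells ranged from 7.82 to 244 (median 27.7) and from 5.51 to 153 (median 24.4). None of the 16 was higher and 3 (18.8%, against 11.9% of all genes) were lower, Fabp7 and S100b among them. The 10 smooth muscle markers summed to 12.3 against 15.8 and 6.62 against 11.4, with a range over chosen cells of 1.15 to 225 and 1.14 to 109, and 0 of them were higher and 3 (30%) lower, Cnn1, Synpo2 and Tagln. None of 7 compared immune markers and none of 9 fibroblast and interstitial markers was higher, while 3 (42.9%) of the former, C1qa, C1qb and Lyz2, and 2 (22.2%) of the latter, Dcn and Kit, were lower. The immune list had 0 UMIs in 84.1% and 86.2% of the chosen cells of mice 2 and 3. The shares were near these in the other cells, 84.1% and 83.5%. The list of endothelial and epithelial markers also held Chga and Chgb, genes of secretory granules that were read in many of these cells. Of its 4 compared genes 1 (25%, against 2.61% of all genes) was higher and 1 (25%, against 11.9%) was lower, Chgb. The higher gene was Chga, which encodes the chromogranin A of secretory granules, at 2.59 against 1.52 and 2.59 against 1.42. This list summed to 4.76 against 5.24 and 5.70 against 6.43, while its median per cell was 4.38 against 3.20 and 5.38 against 3.98.

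These cells were put forward as young neurons of the Bnc2 branch, and Bnc2 did not bear this out for the chosen cells as a whole. It was 0.759 (0.634 to 0.902) against 0.581 (0.531 to 0.634) in mouse 2 and 0.616 (0.484 to 0.773) against 0.837 (0.760 to 0.919) in mouse 3, so it turned direction between the mice, with a mean log2 ratio of −0.03 ± 0.59 (SD, n = 2). Of 16 factors listed for the Bnc2 side 3 (18.8%, against 2.61% of all genes) were higher, Dlx5, Onecut2 and Zfp804a, and 2 lower, Casz1 and Pbx3, a share near the 11.9% of all genes. Dlx5 and Onecut2 rested on 20 and 7 UMIs in the chosen cells of mouse 2 and on 7 and 4 in mouse 3. Etv1, the mark of the other side, stood at 2.66 (2.42 to 2.92) against 4.37 (4.23 to 4.51) in mouse 2 and at 3.14 (2.83 to 3.47) against 3.48 (3.32 to 3.64) in mouse 3, where the intervals overlapped. Nos1 was read at 1.98 against 6.11 and at 3.004 against 4.38. Against only those other cells in which Bnc2 was detected, Etv1 and Nos1 turned direction, with mean log2 ratios of 1.15 for Etv1 and 0.81 for Nos1. The list of Etv1-side factors summed to 39.4 against 128 in mouse 2 and to 53.4 against 83.1 in mouse 3. Of its 17 compared genes 0 were higher and 3 (17.6%, against 11.9% of all genes) lower, Cartpt, Etv5 and Gal. Against other cells with Bnc2 the mean log2 ratio of this list was −0.20 ± 0.60 (SD, n = 2). By single cells of mouse 2, 28.5% of the chosen had Bnc2 without Etv1, 34.4% Etv1 without Bnc2 and 13.2% both, and of the others 15.5%, 60.3% and 11.01%. In mouse 3 these shares were 19.1%, 42.6% and 15.96% of the chosen and 18.5%, 49.8% and 14.9% of the others. Thinned to 3000 UMIs, Bnc2 without Etv1 was found in 16.8% and 10.6% of the chosen and in 11.1% and 15.3% of the other cells. The chosen cells as a whole are therefore called here by their rule and not as a Bnc2 branch.

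The levels depended on how many of the 8 selecting genes a cell had, among cells with fewer than 3 genes of the second set. Phox2a in mouse 2 was 0.904 in cells with 0 selecting genes, 1.58 with 1, 2.16 with 2, 4.54 with 3, 9.30 with 4, 12.1 with 5 and 13.6 with 6 to 8. In mouse 3 the same series was 0.859, 1.44, 2.08, 2.98, 4.68, 10.1 and 13.3. Sox11 went from 0.606 in the first to 3.87 in the last class in mouse 2 and from 0.720 to 5.19 in mouse 3. Stmn2 in mouse 2 was 22.5 in cells with 2 selecting genes, 14.2 with 3, 4.33 with 4 and 2.47 with 6 to 8, and in mouse 3 19.5, 19.6, 9.61 and 3.62.

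Cells with exactly 3 selecting genes, the largest class of the chosen cells, were close to the cells just outside the rule in their level of Etv1. Etv1 in these cells was 4.77 in mouse 2 and 5.34 in mouse 3, against 4.72 and 5.23 in cells with 2 selecting genes. In cells with 4 selecting genes it was 1.90 and 3.52, with 5 it was 1.16 and 0.415, and with 6 to 8 it was 0.932 and 0.410. Nos1 stood at 3.71 and 4.96 in cells with 3 and at 0.384 and 0.448 in cells with 6 to 8. Gal stood at 28.7 and 30.3 in cells with 3 and at 2.63 and 1.16 in cells with 6 to 8. Bnc2 did not follow such a series, with 0.723 and 0.431 in cells with 3 and 0.658 and 0.709 in cells with 6 to 8. Median depth was 11293 and 12018 UMIs in cells with 3 selecting genes and 11473 and 13307 in cells with 6 to 8.

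**Figure D4:**
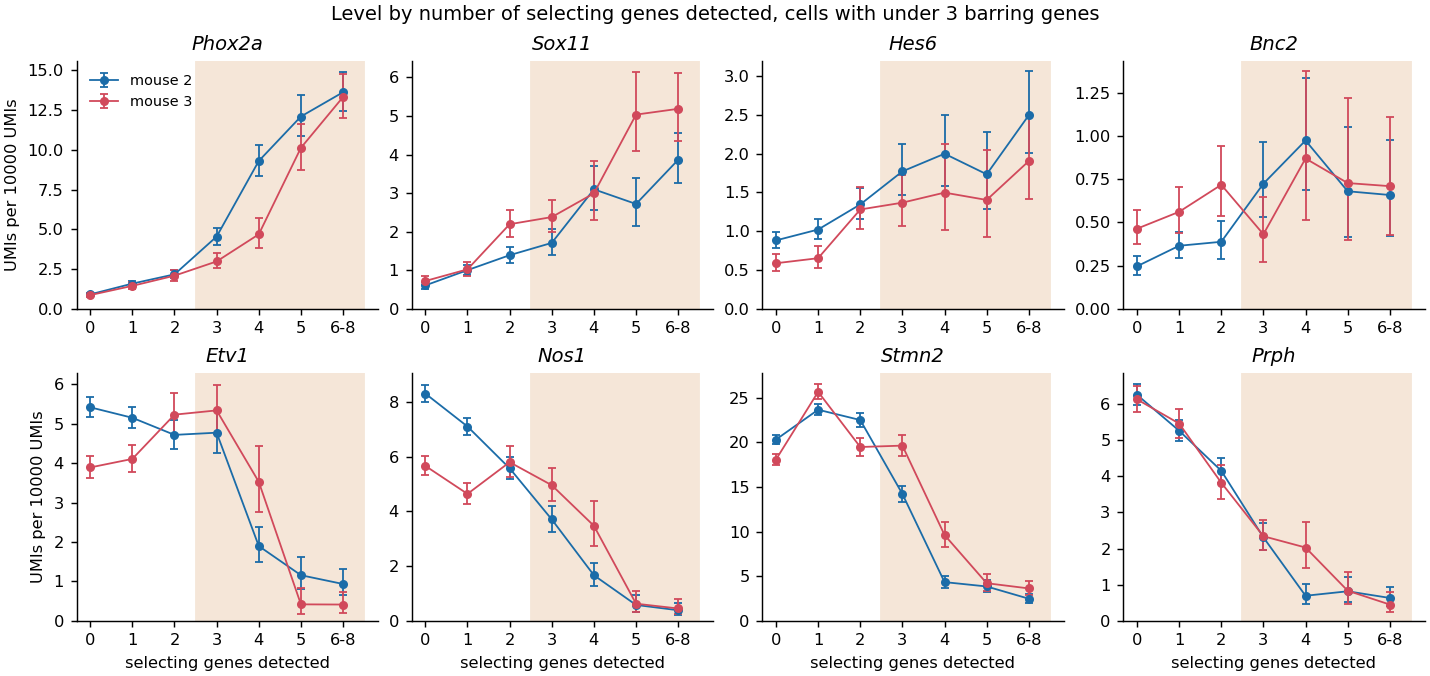
Level (UMIs per 10000 UMIs, linear axes from 0) of 8 genes outside the rule by the number of selecting genes detected, in cells with fewer than 3 genes of the second set, for mouse 2 (blue) and mouse 3 (red). Error bars are exact 95% Poisson intervals and the shaded classes are the chosen cells, in which Phox2a ends at 13.6 and 13.3 and Etv1 at 0.932 and 0.410.

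The chosen cells were spread over several groups of cells when clustered without the 16 genes of the rule. Cluster 5, with 160 cells, held 112 of the 247 (45.3%), 72 in mouse 2 and 40 in mouse 3, and these made up 70.0% of that cluster. A further 46 lay in cluster 1, 35 in cluster 6, 19 in cluster 3 and 18 in cluster 0. Of the 49 chosen cells with 6 or more selecting genes 39 lay in cluster 5, and of the 101 with exactly 3 genes 17. Among the 20 nearest neighbours of a chosen cell, found in 20 principal components without the genes of the rule, 61.5% in mouse 2 and 49.3% in mouse 3 were chosen cells, against 7.91% and 6.17% for the other cells. The share was 37.7% and 30.4% around cells with 3 selecting genes, 65.8% and 45.9% around those with 4 and 81.6% and 76.5% around those with 5 or more.

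**Figure D5:**
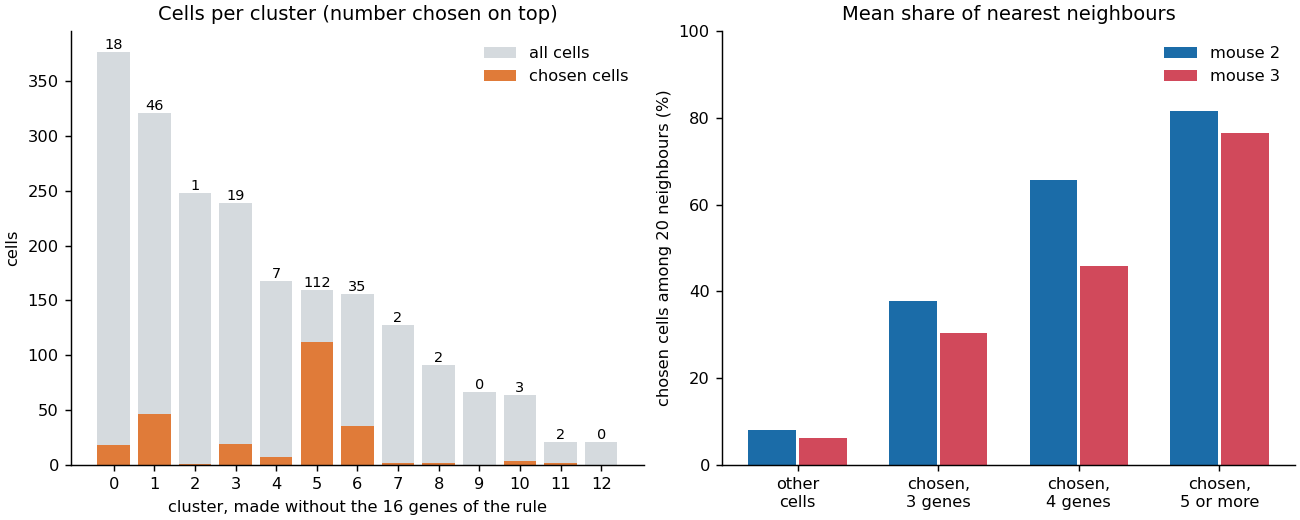
Left, cells per cluster (grey, all cells; orange, chosen cells, with their number on top) in a clustering without the 16 genes of the rule. Right, mean percentage of chosen cells among the 20 nearest neighbours of other cells and of chosen cells by number of selecting genes, in mice 2 (blue) and 3 (red), up to 81.6% and 76.5%.

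The chosen cells of these clusters had unlike levels, given here as a description since the clusters were made from the same cells. In cluster 5 Phox2a was 13.5 and 12.46, Bnc2 1.14 and 1.18, Etv1 0.865 and 0.360, Nos1 0.419 and 0.540 and Stmn2 3.49 and 5.36 in mice 2 and 3. These cells thus had Bnc2 above and Etv1 below the level in the other cells of both mice. In cluster 6 the chosen cells had Etv1 at 13.0 and 9.62, Nos1 at 12.47 and 9.66, Bnc2 at 0.155 and 0 and Phox2a at 2.48 and 2.07, and Etv1 was detected in 100% of them. In cluster 3 they had Hes6 at 7.38 and 5.63 and Sox4 at 14.5 and 11.9, with Stmn2 at 0.922 and 1.15. In cluster 0 they had Stmn2 at 44.5 and 34.8, Cartpt at 40.0 and 20.1 and Sox11 at 0.119 and 0.164. In cluster 1 the glial factor gene Sox10 was read at 2.497 in mouse 2 and at 2.53 in mouse 3, against 0.405 and 0.300 in cluster 5, and the part of this in their other values was not tested.

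The chosen cells were set beside the 3 groups of cells closest to them by name. Cells with at least 3 of the 8 genes that bar a cell from the rule and fewer than 3 selecting genes, called by Ffar2, Ffar3 and Krtdap, numbered 112 in mouse 2 and 86 in mouse 3. In them Phox2a was 4.19 and 3.69, Bnc2 1.64 and 1.82, Etv1 1.04 and 1.36 and Prph 6.81 and 5.17. The mature neuron genes summed to 71.0 and 67.1 in these cells and to 33.8 and 42.3 in the chosen cells. Cells with at least 2 of Tac1, Itga8 and Htr2b, 63 in each mouse, had Phox2a at 1.45 and 1.44 and the mature genes at 77.5 and 82.6. The other Bnc2-positive cells, 109 and 71, had Phox2a at 2.34 and 2.57 and the mature genes at 60.6 and 64.8. Phox2a was thus higher and the mature list lower in the chosen cells than in each of these groups in both mice. The Bnc2-side factors summed to 16.1 and 13.8 in the chosen cells, 14.04 and 14.4 in the Ffar2, Ffar3 and Krtdap cells and 18.8 and 16.4 in the other Bnc2-positive cells, so their order was not the same in both mice. Since these groups were also chosen by measured genes of the same cells, no test was made between them.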

How the data were processed

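tdTomato-positive cells of 3 Ednrb-/- mice were profiled as 1 10X library each. Cell Ranger and the genome build mm10 are named in the submitters' processing notes. The study kept cells with 1500 to 5000 genes, filtered on mitochondrial genes, and removed confounding genes. It then removed all non-neuronal cells before it clustered the neurons again. The authors deposited natural log values, ln(1 + UMIs per 10000 UMIs of the cell), which gave whole UMIs for 100.0% of values above 0 (tolerance 1e-06). The analysis used those UMIs, 1526256, 10358118 and 6412495 in mice 1 to 3, summed per mouse over chosen and other cells (Python 3.11.15, numpy 2.4.6, scipy 1.17.1). A gene with 0 UMIs was set to 3, and a bound not past 1 was counted as no difference. Ratios were taken within mice with at least 10 chosen cells, and given as mean and SD of the log2 ratio. Ratios were tested on simulated data. No p-value was computed, since cells are not replicates and were selected on the values compared. Clusters came from Seurat 5.3.0 (2000 variable genes, 20 components, resolution 0.5), doublet calls from Scrublet in scanpy 1.11.5 at an expected rate of 6%. The members of the rule and the 27 gene lists were chosen with earlier results of these data known. Genes named were those of the rule, the lists and the 15 highest and 15 lowest by the weaker mouse, detected in at least 20% of the chosen cells (higher) or other cells (lower) of both mice. Ratios were recomputed under other rules, depths, denominators and cells. Starts and positions came from RefSeq, GRCm38.p6. Some genes are not reported here.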

Additional observations from a re-analysis of the deposited data

How the results depend on the processing

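Every ratio was paired by design, since chosen and other cells of the same mouse were compared, and with 1 group of mice there was no further replicate block to add. In mean log2 ratios of summed levels, the neurogenic list (0.53 as reported) was 0.62 with at least 4 selecting genes, 0.62 with at least 3 of the 6 selecting genes without Cox8b and Ndufa4l2, and 0.61 with listed nuclear genes as denominator. The immature list (−0.02) was 0.0601 with at least 2 selecting genes, 0.0580 with cells thinned to 3000 UMIs, 0.0630 with the mean over cells, 0.0634 with listed genes as denominator, and −0.15 with at least 4 selecting genes. The mature list (−0.69) was −0.48 with at least 2, −0.96 with at least 4 and −0.94 with the 6 selecting genes. The Bnc2-side list (−0.14) was −0.23 thinned, −0.21 with the mean over cells, −0.0540 with listed genes and −0.0646 against other cells with Bnc2. The Etv1-side list (−1.17) was −2.03 with at least 4 selecting genes and −0.20 against other cells with Bnc2. The excitatory list (−1.50) was −1.12, −2.67 and −2.78 with at least 2, at least 4 and the 6 selecting genes, and −2.43 against other cells with Bnc2. These other cells were not limited to cells with fewer than 3 genes of the second set. The nitric oxide list (−1.64) was −3.15 with at least 4 selecting genes and −0.31 against other cells with Bnc2, and the sensory list (−1.01) was −0.52 with at least 2 selecting genes and −0.38 against other cells with Bnc2. Against other cells with Bnc2, Etv1, Nos1 and Ednrb turned direction, at 1.15, 0.81 and 0.47, and Etv1 was 0.0081 with at least 2 selecting genes. The share of cells chosen (9.76%) was 18.6% with at least 2 selecting genes, 5.63% with at least 4, 5.61% with the 6 selecting genes, 4.30% with 2 UMIs for a positive gene and 4.20% with the rule applied to thinned cells. Leaving out each mouse gave a share of 7.45% to 14.4%, 353 to 994 genes higher, 1610 to 3194 lower, which with 1 mouse left need agree in that mouse only, and an immature list at −0.0902 to 0.0491. Phox2a stayed between 1.12 and 2.30 and Hes6 between 1.04 and 1.62 over all 12 alternatives, of which the limit to cells with 5000 UMIs or more was chosen after seeing the data. With listed genes as denominator the median over all genes went from −0.09 to 0.00 in mouse 2 and from −0.11 to −0.03 in mouse 3. With 2 mice the spread behind each mean is known poorly, and genes with few UMIs, such as Dlx5 and Onecut2, are limited by depth.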
